A study of Mus musculus with 21 samples.

Results

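The transcripts described here are those of 9 genes listed as near 0 in *Kif11* fl/fl mouse oocytes and present in wt/fl oocytes. Of the 54232 genes counted, the 9 were picked for that difference: Gm44183, Gm37110, Gm37724, Gm20826, Gm45663, Gm36958, Gm42887, Gm21244 and Olfr655. Of these, Gm45663 and Gm36958 were lower in fl/fl than in wt/fl but stayed well above 0 there. All 9 had a count above 0 in at least 3 libraries and passed the filter on low counts. The difference between wt/fl and fl/fl is therefore a description with no test, and tests are given for measures that the choice did not use.

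Poly(A) RNA was amplified as full-length cDNA from 21 libraries of 3 fully grown oocytes at the germinal vesicle stage. The study's methods describe the donors as female mice of 3 to 4 months injected with eCG or HyperOva. The wt/fl group (WtFlox, 4 libraries) carried a wild-type and a floxed *Kif11* allele and no Cre. The wt/fl Spo11-Cre group (WtFlox, Spo11-Cre, 5 libraries) added a Cre that acts from early meiotic prophase. The fl/del group (FloxDel, 4 libraries) carried a floxed and a constitutively deleted allele without Cre, and fl/del Spo11-Cre (FloxDel, Spo11-Cre, 4 libraries) carried both alleles with Cre. The fl/fl groups carried a pair of floxed alleles with an oocyte-specific Cre, either Gdf9-Cre (FloxFlox, Gdf9-Cre, 2 libraries) or Zp3-Cre (FloxFlox, Zp3-Cre, 2 libraries). A floxed allele was thus common to all 21 libraries. Each mouse gave 1 or 2 libraries, so p-values and SDs measure the spread between libraries and not between mice. Outside fl/fl, most library names share a prefix with another library of their group. What the prefix marks is not stated, and it may be the mouse, so n counts libraries. Per the study's methods, the fl/fl lines came from crosses of the floxed mice with Gdf9-Cre and Zp3-Cre mice. The sequencing methods cover 17 libraries, and the sequencing run of the 4 fl/fl libraries is not given in the sources used here. Homozygosity of the floxed allele, the Cre driver, the cross and the library set cannot be told apart in a comparison of fl/fl with wt/fl.

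Library totals were 7205010 to 18454549 counts in the 17 libraries and 7801470 to 10759741 in the fl/fl libraries, with 16740 to 19444 and 18304 to 19267 genes detected. Counts of *Kif11*, the targeted kinesin gene, over all exons were 23.8 to 43.2 CPM (counts per 1000000 counts of the library) in wt/fl, 17.6 to 30.5 in wt/fl Spo11-Cre, 7.49 to 14.6 in fl/del, 1.08 to 2.70 in fl/del Spo11-Cre, 4.90 to 5.11 in fl/fl Gdf9-Cre and 4.27 to 7.95 in fl/fl Zp3-Cre. Oocyte markers (12 genes, among them Gdf9 and Zp3) summed to 23010 to 31424 CPM in the 17 libraries and 23709 to 32360 CPM in fl/fl. Follicle cell markers (12 genes) summed to 75.2 to 125 CPM and 84.8 to 124 CPM, mostly from Cyp19a1 and Nr5a2, with Foxl2 and Col1a2 at 0 in every library. Mitochondrial genes took 0.168% to 0.281% of counts in the 17 libraries and 0.268% to 0.510% in fl/fl. The part of this shift in the results below was not tested.

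Symbols of the form Gm and a number are placeholders for predicted mouse genes, and most of them name models built from cDNA evidence without a known function. TEC is the annotation's class for such models that still await experimental testing, and lincRNA is its class for long non-coding RNAs between genes. Mouse oocytes are known for transcripts that start in or run through interspersed repeats, the remains of mobile elements, and many copies of such a repeat differ by few bases. Reads from copies that are nearly alike can be placed at the wrong copy or discarded.

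On GRCm38, 5 of the 9 genes are TEC models of 1 exon. Gm44183 (ENSMUSG00000107535) spans chr2:38564727-38566354 on the minus strand, within an intron of *Nek6*, a kinase gene on the opposite strand. Gm37110 (ENSMUSG00000104498) spans chr1:32485315-32486942 on the plus strand, within an intron of *Khdrbs2*, an RNA-binding protein gene on the same strand. Gm45663 (ENSMUSG00000109909, chr8:104152706-104154337, plus strand), Gm36958 (ENSMUSG00000102204, chr9:102764635-102766509, minus strand) and Gm42887 (ENSMUSG00000106986, chr5:69503842-69504960, minus strand) overlap no other annotated gene. Gm37724 (ENSMUSG00000102917, chr1:33065130-33066350, plus strand) is a lincRNA of 1 exon between genes. Gm20826 (ENSMUSG00000094081, chrY:7632774-7638489) and Gm21244 (ENSMUSG00000094484, chrY:7165068-7169293) are annotated as protein-coding, on the minus strand of the Y chromosome. Olfr655 (ENSMUSG00000051182, chr7:104595301-104601779, minus strand) encodes an olfactory receptor, a G protein-coupled receptor known from the sensory neurons of the nose. No exon base of the 9 genes is shared with an exon of an overlapping gene. The library kit does not mark strand, so reads of Gm44183 cannot be told from reads of unspliced *Nek6* RNA over the same bases.

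A measure that the choice did not use was the sequence of the annotated transcripts. In an alignment of the Gm44183 transcript (1628 bases) to all annotated transcripts, 8 of the 9 genes carried it at 95.5% to 100% identity over 1121 to 1634 aligned columns. Olfr655 was the exception. Gm37110, on another chromosome, was identical to Gm44183 at all 1628 positions. Gm44792, a TEC gene that was not picked, differed from Gm44183 at 1 of 1628 positions. The stretch covered 86.9% to 100% of the transcripts of the 6 non-coding members. Gm37724 and the Y-linked genes carried it in the opposite direction to their own transcripts. Gm20826 held it in a pair of overlapping alignments, over 67.7% of its transcript of 4605 bases, and Gm21244 held it over 52.3% of 3115 bases.

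**Figure D1:**
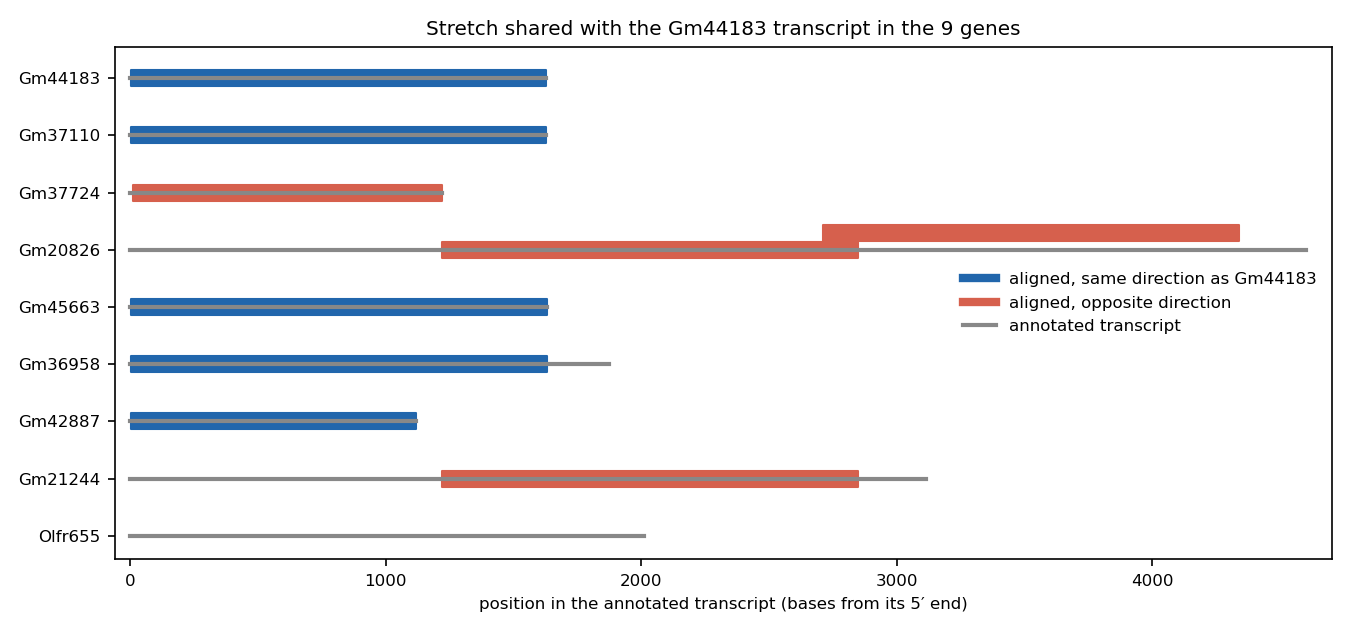
Annotated transcripts of the 9 genes drawn to scale in bases from the 5′ end (grey lines), with the part that aligned to the Gm44183 transcript at 90% identity or more over at least 500 bases (blue bars for the same direction, red bars for the opposite one; the bar drawn above the line of Gm20826 is its second alignment). The stretch fills most of the 6 non-coding transcripts, lies inside both Y-linked transcripts and is absent from Olfr655.

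How far a read could be assigned to a single gene differed among the 9. Every window of 150 bases (the read length of the 17 libraries) in Gm44183, Gm37110, Gm42887 and Gm21244 also occurs in the transcript of another gene, as do 98.8% of the windows of Gm20826. The share was 58.5% in Gm36958, 36.9% in Gm37724, 23.5% in Gm45663 and 0% in Olfr655. Oocytes come from females, which have no Y chromosome, and 4.26% of the windows of Gm20826 and 3.20% of those of Gm21244 occur in transcripts off the Y chromosome. Of 1568 other Y-linked genes in the counts, 1560 were at 0 in all 21 libraries. Only annotated transcripts were searched here, not the genome. Counts of uniquely mapped reads were nevertheless 74 to 208 per library for Gm44183 in the 17 libraries. How such reads came to be placed at 1 copy was not tested, and the read length of the fl/fl libraries is not given in the sources used here. The counts of the 8 genes that carry the stretch are therefore uncertain as to which copy was transcribed. Reads counted at Gm20826 and Gm21244 cannot come from a Y chromosome that the donors lack, and their source was not tested.

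**Figure D2:**
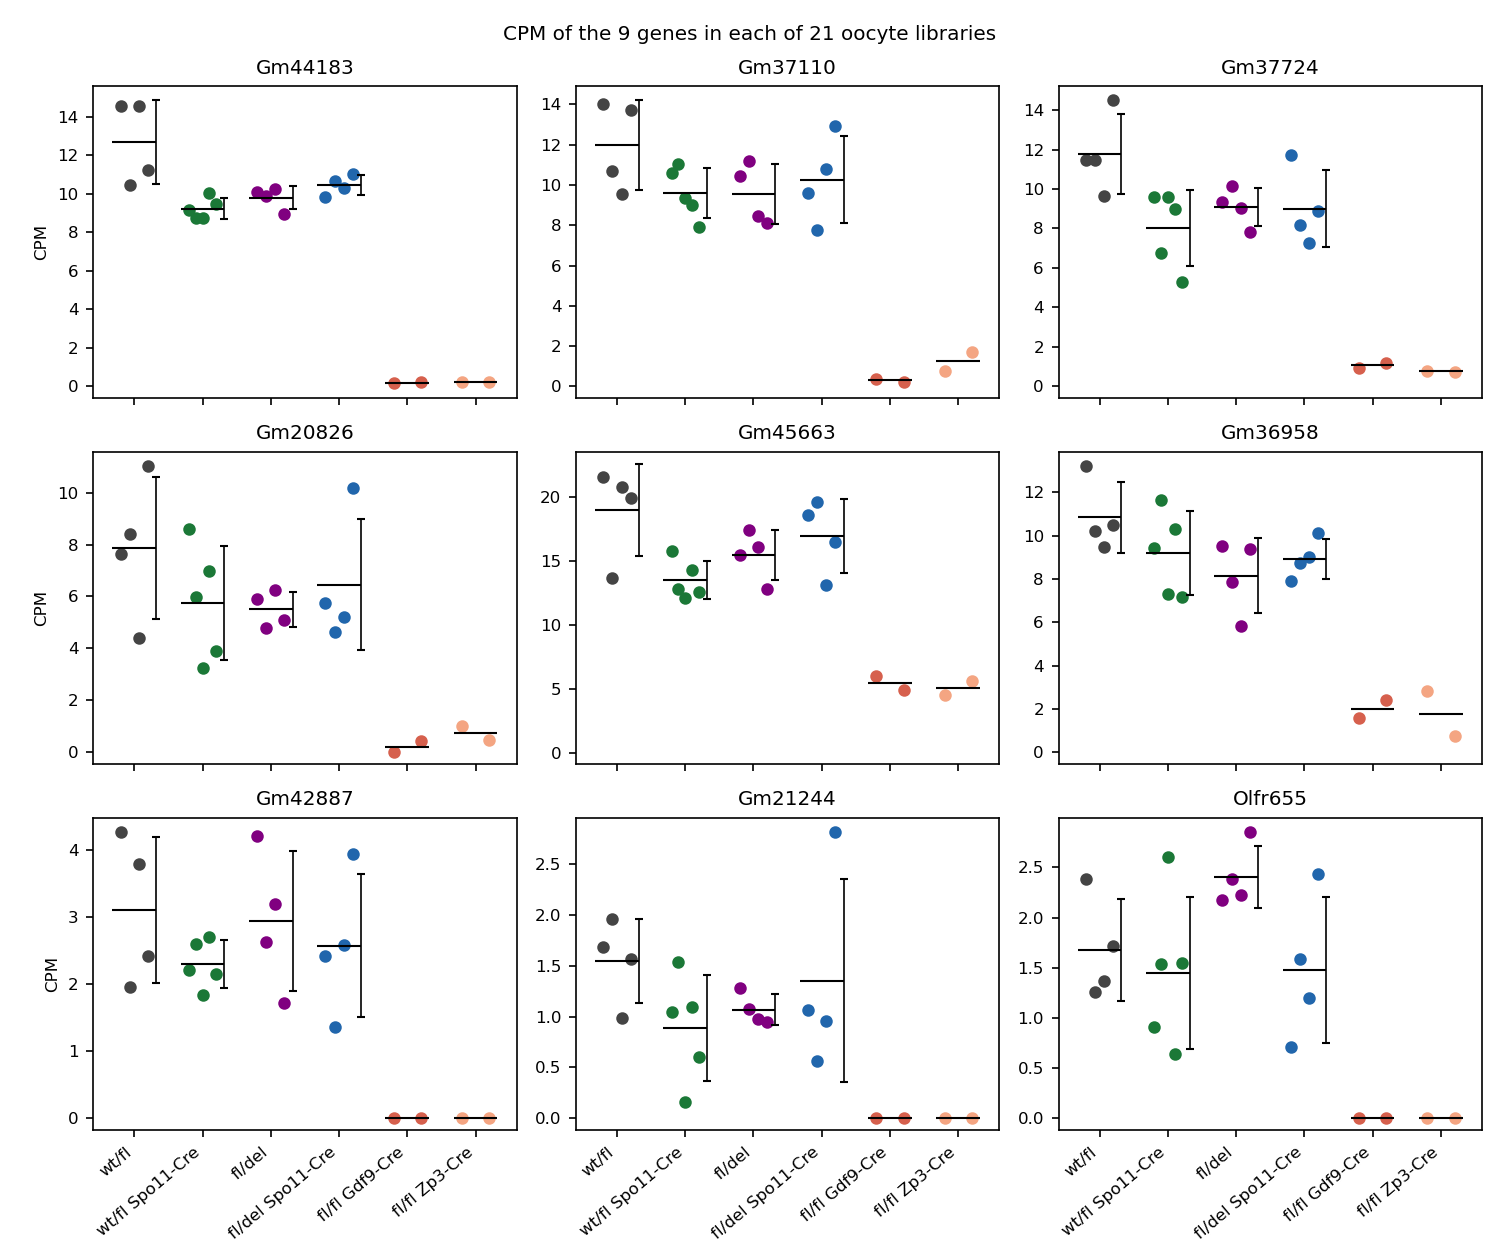
CPM of the 9 genes (1 panel each, each with its own linear axis) in the 21 libraries, by group. Points are libraries, horizontal bars are group means, and vertical bars are the SD in groups of 4 or 5 libraries. In every panel all 4 fl/fl libraries lie below the other 17, and Gm42887, Gm21244 and Olfr655 are at 0 in all 4.

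Gm44183 had the largest fold among the 6 genes that kept counts in fl/fl. Its level was 14.6, 10.4, 14.6 and 11.2 CPM in the wt/fl libraries, 0.186 and 0.218 CPM in fl/fl Gdf9-Cre, and 0.256 and 0.244 CPM in fl/fl Zp3-Cre. The 4 fl/fl libraries held 2 counts each, and 1 count each in the deposited counts made together with *Kif11* exon 22. Pooled over libraries, the wt/fl level was 57.4-fold the fl/fl level. In the 13 libraries of the 3 other groups, which the choice did not use, Gm44183 ranged from 8.72 to 11.0 CPM with a median of 9.90 CPM.

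Gm37110, its identical copy, was at 14.0, 10.7, 9.55 and 13.7 CPM in wt/fl. It was at 0.372 and 0.218 CPM with Gdf9-Cre and at 0.769 and 1.71 CPM with Zp3-Cre. The groups did not overlap, the fl/fl libraries spread more widely than for Gm44183, and the pooled fold was 16.6. Gm37724, which carries the stretch in reverse, was at 11.5, 11.5, 9.63 and 14.5 CPM in wt/fl. In fl/fl it was at 0.929, 1.20, 0.769 and 0.733 CPM, a pooled fold of 12.8. All 4 fl/fl values lay within a narrow band.

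Gm45663 and Gm36958 had the smallest folds and stayed well above 0 in fl/fl. Gm45663 was at 21.6, 13.7, 20.8 and 19.9 CPM in wt/fl and at 5.95, 4.90, 4.49 and 5.62 CPM in fl/fl, with 35 to 64 counts per fl/fl library and a pooled fold of 3.61. Gm36958 was at 13.2, 10.2, 9.48 and 10.5 CPM in wt/fl and at 1.58, 2.39, 2.82 and 0.733 CPM in fl/fl, a pooled fold of 5.85. For both genes the description "near 0" does not hold in fl/fl, although neither overlapped wt/fl. The fold did not divide picked from unpicked genes. Gm43694, at 8.01 to 9.45 CPM in wt/fl and 1.21 to 4.27 CPM in fl/fl, was not picked. Nor was Gm45553, with a pooled fold of 95.6. Both are described further on.

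Gm42887, the shortest of the 9, was at 4.27, 1.96, 3.79 and 2.42 CPM in wt/fl and at 0 in all 4 fl/fl libraries. A total of 3 counts over the 4 fl/fl libraries, taken as the limit that a count of 0 allows, is 0.0835 CPM. The pooled wt/fl level was 37.7-fold that limit, which treats each count as independent. Counts of Gm42887 over the 17 libraries were 665, against 351 in the exon 22 version. With the exon 22 counts the limit would be higher and the fold lower. Because the cDNA was amplified by PCR and carried no molecular identifiers, reads are not separate molecules. Such limits are therefore nominal and do not cover all counting error.

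Levels of the Y-linked models are those of reads placed there, since the donors had no Y chromosome. Of these models, Gm20826 was at 7.63, 8.41, 4.40 and 11.0 CPM in wt/fl and at 0, 0.435, 1.03 and 0.488 CPM in fl/fl, a pooled fold of 17.6. Gm21244 was at 1.68, 1.96, 0.986 and 1.56 CPM in wt/fl and at 0 in all 4 fl/fl libraries. The pooled wt/fl level was 18.5-fold the same nominal limit. In the exon 22 version Gm21244 had 5, 1, 4 and 2 counts in the wt/fl libraries and 0 in fl/fl. The size of its fold is therefore not firm and would be much lower with those counts. Gm21244 had 3 counts, or 0.163 CPM, in wt/fl Spo11-Cre replicate 3, so a low value was not confined to fl/fl. These 2 genes also depended most on how reads were counted. Counts over all exons were 2.27 and 4.80 times those of the exon 22 version, against 1.89 to 2.0 for the other 7 and a median of 1.94 over genes with at least 100 counts. By their names the versions differ in the *Kif11* exons counted, and the study's methods describe a custom annotation of that kind for exon 1. Totals differed by 1.92 to 1.95 times in every library, for which no reason is given in the sources used here.

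Olfr655, without the shared stretch and without a shared window of 150 bases, was at 2.38, 1.26, 1.36 and 1.72 CPM in wt/fl and at 0 in all 4 fl/fl libraries. The wt/fl level was 20.3-fold the same nominal limit. It rested on 16 to 34 counts per wt/fl library, or 17, 8, 9 and 11 in the exon 22 version. With those counts the fold would be lower. In the 13 other libraries it ranged from 0.645 to 2.85 CPM with a median of 1.58 CPM. In poly(A) RNA from pooled cells, fewer cells with a transcript and less of it per cell cannot be told apart.

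Summed, the 9 genes held 70.1 to 90.8 CPM in wt/fl, 50.6 to 90.8 CPM over the 17 libraries and 9.02 to 10.1 CPM in fl/fl, which is 11.8% ± 0.578 (SD, n = 4) of the wt/fl mean. The fl/fl libraries lay below all 4 wt/fl libraries for 9 of 9 genes, against 2.0% of the 23225 genes tested, and below the 13 other libraries for 9 of 9, against 0.521%. Both counts follow from the choice and are given as description. In those 13 libraries the mean level of 8 genes was 70.2% to 83.0% of wt/fl, and that of Olfr655 was 104%. The choice used wt/fl, so a lower level elsewhere can follow from it in part. It was also not particular to the 9. The 31 unpicked genes with the stretch, described further on, summed to 341 ± 31.2 CPM in wt/fl (SD, n = 4). Over the 17 libraries, wt/fl included, they summed to 294 ± 41.2 CPM (SD, n = 17). Over the 13 libraries, Pearson's r between pairs of the 9 genes (log2 of CPM plus 0.5, 36 pairs) was -0.27 to 0.85 with a median of 0.23. The points share library depth and, for 8 genes, sequence.

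The 3 groups that were not used in the choice allowed tests of whether the level differed between genotypes. Only fl/del Spo11-Cre against wt/fl Spo11-Cre has Spo11-Cre on both sides. In fl/del Spo11-Cre against fl/del, and in fl/del against wt/fl Spo11-Cre, the presence of Cre and the state of *Kif11* cannot be told apart. No member passed the test in any of the 3 pairs (edgeR's quasi-likelihood test on the 17 libraries, Benjamini-Hochberg adjusted p under 0.05), and 0 of 9 passed with DESeq2. Unadjusted p was under 0.05 for 0 of 9 in each pair. Over all genes tested, 0.241% were called in fl/del Spo11-Cre against fl/del, 0.0357% in fl/del Spo11-Cre against wt/fl Spo11-Cre, and 0.201% in fl/del against wt/fl Spo11-Cre. In the same order, the unadjusted edgeR p was under 0.05 for 1862, 1591 and 2068 of the 22383 genes. DESeq2 called 91, 14 and 91 of them. Beside these shares, 0 of 9 is no result about the 9 genes, and the sizes and errors of their differences follow.

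Gm44183 was at 9.18, 8.74, 8.72, 10.1 and 9.48 CPM in wt/fl Spo11-Cre, at 10.1, 9.90, 10.3 and 8.97 CPM in fl/del, and at 9.81, 10.7, 10.3 and 11.0 CPM in fl/del Spo11-Cre. The groups overlapped. For fl/del Spo11-Cre, its log2 fold change was 0.07 (SE 0.23) over fl/del and 0.15 (SE 0.22) over wt/fl Spo11-Cre, with approximate 95% intervals of -0.38 to 0.53 and -0.28 to 0.58. Gm45663 had the lowest unadjusted p of the 9 over the 3 pairs, and was at 15.8, 12.8, 12.1, 14.3 and 12.5 CPM in wt/fl Spo11-Cre and 18.6, 19.6, 13.1 and 16.5 CPM in fl/del Spo11-Cre. The highest values lay in fl/del Spo11-Cre, with overlap, and the log2 fold change was 0.30 (SE 0.19, approximate 95% interval -0.07 to 0.68, edgeR adjusted p = 0.804).

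Olfr655 was at 2.17, 2.39, 2.22 and 2.85 CPM in fl/del, and at 0.711, 1.58, 1.20 and 2.43 CPM in fl/del Spo11-Cre. The highest fl/del Spo11-Cre library lay within the fl/del range, and the others lay below it. The log2 fold change was -0.73 (SE 0.58, edgeR adjusted p = 0.797), with an approximate 95% interval of -1.87 to 0.42. Against wt/fl Spo11-Cre, fl/del had a log2 fold change of 0.72 (SE 0.55, edgeR adjusted p = 0.736), the lowest adjusted p of the 9 in any of the 3 pairs. For the 9 genes the log2 fold changes had medians of 0.07, 0.14 and 0.18 in the 3 pairs, in the order above, and SEs of 0.19 to 0.72. The differences of the low genes, Gm21244 and Olfr655, were the least precise.

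**Figure D3:**
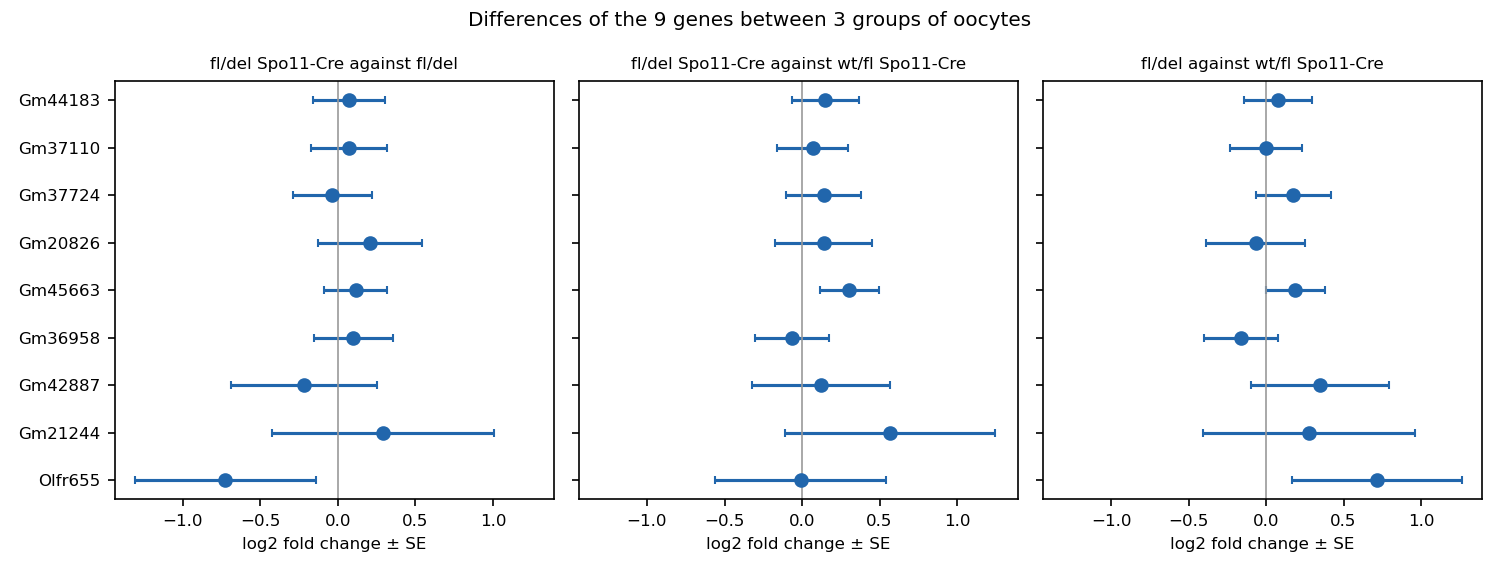
Log2 fold change (horizontal axis, with SE as bars) of each of the 9 genes in the 3 pairs of groups that the choice did not use, from the edgeR fit of 17 libraries. The values lie between -0.73 and 0.72, no gene passed the test, and Gm21244 and Olfr655 have the widest bars.

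Genes placed around the 9 were compared between fl/fl and wt/fl, chosen by position alone. These were the genes that overlap a member and the nearest tested gene on each side, 16 in all. No neighbour passed the test (edgeR, 21 libraries), 1 had an unadjusted p under 0.05, and DESeq2 called 1, against 2.79% of all 23225 genes called (1.77% lower and 1.02% higher in fl/fl). Nek6, whose intron holds Gm44183, was at 0.725 ± 0.928 CPM (SD, n = 4) in wt/fl and 1.07 ± 0.276 in fl/fl (SD, n = 4), with a log2 fold change of 0.48 (SE 0.88) that is imprecise at such levels. Khdrbs2, whose intron holds Gm37110, was at 5.37 ± 1.34 CPM in wt/fl and 4.60 ± 1.69 in fl/fl (SD, n = 4 each), with a log2 fold change of -0.35 (SE 0.37, edgeR adjusted p = 0.741). Psmb7, a proteasome subunit gene 21681 bases from Gm44183, was at 158 to 162 CPM in wt/fl and 123 to 149 CPM in fl/fl. The groups did not overlap, and its log2 fold change of -0.32 (SE 0.11, edgeR adjusted p = 0.107) was called by DESeq2 (adjusted p = 0.0404). Tk2, the mitochondrial thymidine kinase gene nearest to Gm45663, was at 51.8 ± 9.91 and 52.3 ± 7.80 CPM (SD, n = 4 each). Ryk, a Wnt receptor gene nearest to Gm36958, was at 79.4 ± 4.64 and 89.3 ± 15.8 CPM. Olfr654, next to Olfr655, was at 0.0758 CPM in wt/fl and 0.250 CPM in fl/fl, and was not tested with useful precision at such levels (SE 1.63 on the log2 scale). Of the 16 neighbours, 6 were at 1 CPM or more in wt/fl, so the comparison rests on few genes. Khdrbs2 and Gm7114 are also the nearest tested genes to Gm37724, and Kdm5d and Gm20775 are the nearest to both Y-linked members, at least 3002767 bases away.

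The stretch made a second comparison possible, with genes chosen by sequence after the data were seen. In all, 39 of the counted genes carried it at 90% identity or more over at least 500 bases, of which 31 were not among the 9 and 29 of these were tested. In fl/fl against wt/fl, 2 of the 29 were called lower (6.90%) and 2 higher (edgeR adjusted p under 0.05). Over all genes tested, 1.77% were called lower and 1.02% higher. The median log2 fold change was -0.40, with 22 of 29 below 0, beside -0.03 over all genes tested. Among the 10 whose transcript the stretch covered to at least 80%, 2 were lower and 1 higher, with a median of -0.47. These are descriptions of a list, and reads may have been exchanged between its members.

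Gm45553, a TEC model (chr8:54513644-54514150, minus strand), followed the 9 most closely. It was at 2.03, 2.04, 3.79 and 2.81 CPM in wt/fl, at 0.0929 CPM, or 1 count, in fl/fl Gdf9-Cre replicate 1, and at 0 in the other 3 fl/fl libraries. The ratio of the pooled levels was 95.6 (exact 95% interval 16.9 to 3803), and the edgeR adjusted p was 5.05e-06. That interval treats each count as independent and is too narrow where counts are not. Gm45553 is named for this same difference between fl/fl and wt/fl, so the interval and p describe it and support nothing further. It also shares windows of 150 bases with Gm36958, which is among the 9. Gm43694, another TEC model (chr5:32629842-32630960, plus strand), was at 9.31, 8.01, 9.40 and 9.45 CPM in wt/fl and at 1.21, 3.92, 1.41 and 4.27 CPM in fl/fl. Its groups did not overlap (log2 fold change -1.83, SE 0.35, edgeR adjusted p = 0.000458). In each Cre group 1 library lay near 1 CPM and the other near 4 CPM.

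A pair of genes with the stretch rose. Gm38025, a lincRNA (chr3:31341012-31345280, plus strand), was at 16.4, 19.0, 12.9 and 15.8 CPM in wt/fl and 32.2, 39.8, 37.6 and 36.5 CPM in fl/fl (log2 fold change 1.10, SE 0.20, edgeR adjusted p = 0.000177). Gm44087, a TEC model (chr6:146376417-146378186, plus strand), was at 27.8, 20.5, 24.1 and 34.4 CPM in wt/fl and 45.2, 51.6, 44.4 and 40.5 CPM in fl/fl. The groups did not overlap (log2 fold change 0.67, SE 0.18, edgeR adjusted p = 0.0212), and the call was lost without fl/fl Gdf9-Cre replicate 2 (adjusted p = 0.0879), fl/fl Zp3-Cre replicate 1 (0.0608), wt/fl replicate 2 (0.129) or wt/fl replicate 3 (0.0693).

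Gm44792 (chr7:65479594-65481221, minus strand), 99.9% identical to Gm44183, did not follow it. It was at 50.5, 55.9, 32.8 and 52.0 CPM in wt/fl and at 25.0, 39.2, 42.2 and 44.0 CPM in fl/fl. The groups overlapped, and the log2 fold change was -0.45 (SE 0.17, edgeR adjusted p = 0.181). Gm42553 (chr5:43059255-43060883, plus strand), which had the highest CPM in wt/fl of the genes with the stretch, was at 57.2 ± 5.17 CPM in wt/fl and 51.0 ± 4.26 in fl/fl (SD, n = 4 each, log2 fold change -0.26, SE 0.16, edgeR adjusted p = 0.468). Of the 3 genes with at most 1 differing position, Gm44183 and Gm37110 were nearly absent from fl/fl and Gm44792 was not. The genes that rose were 96.1% (Gm44087) and 95.8% (Gm38025) identical to Gm44183. Summed over the 31 other genes, the level was 341 ± 31.2 CPM in wt/fl and 339 ± 43.8 CPM in fl/fl (SD, n = 4 each), whereas the 8 picked genes with the stretch went from 78.8 ± 9.34 to 9.51 ± 0.465 CPM. All 39 together held 377 to 455 CPM in wt/fl and 306 to 404 CPM in fl/fl, with overlap.

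**Figure D4:**
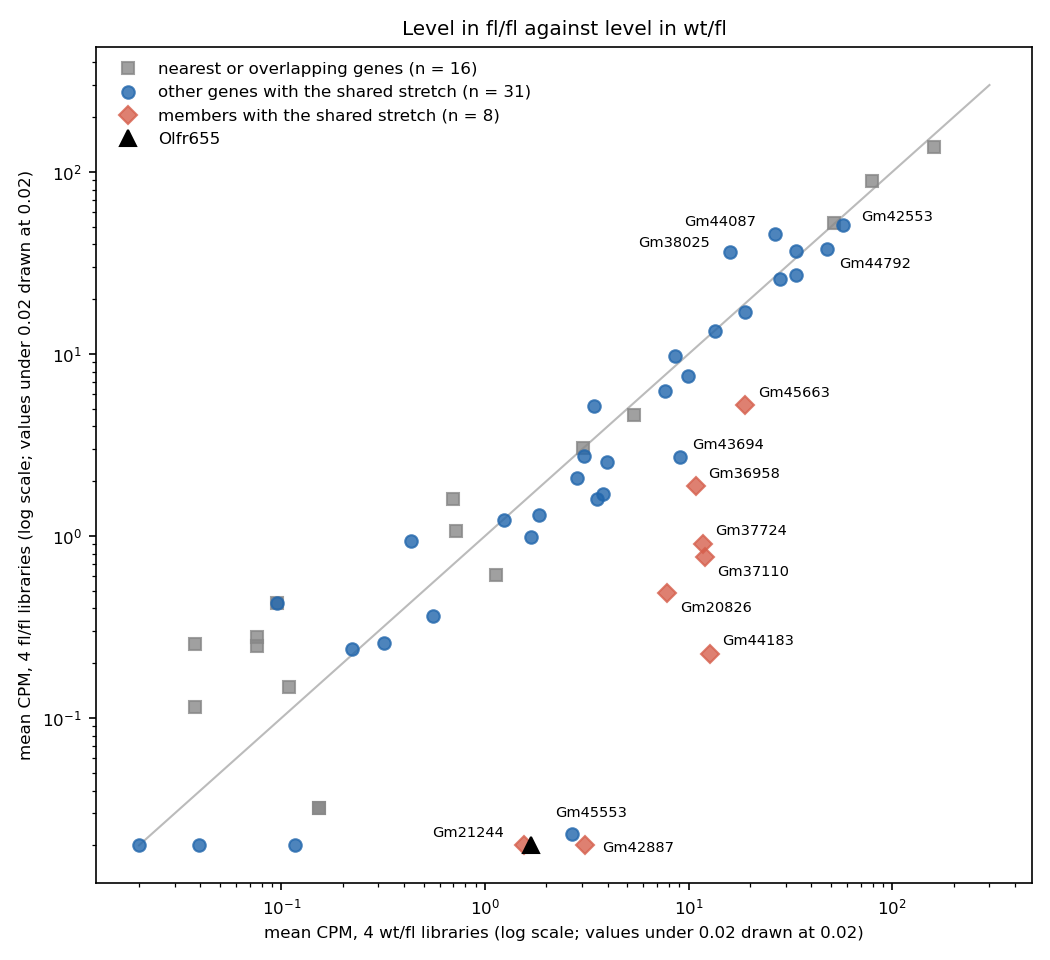
Mean CPM over the 4 fl/fl libraries against mean CPM over the 4 wt/fl libraries, both on log axes with values under 0.02 drawn at 0.02, for the 9 genes (red diamonds, black triangle for Olfr655), the 31 other genes with the stretch (blue circles) and the 16 genes next to a member (grey squares). The grey line marks equal levels. The 9 lie below the line, with Gm45553 and Gm43694, while Gm44087 and Gm38025 lie above it and Gm44792 and Gm42553 lie close to it.

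By class, the other genes with a Gm symbol were called lower in fl/fl in 20 of 6047 tested and higher in 28. That is 0.794% in either direction, against 2.79% of all 23225 genes tested, with a median log2 fold change of -0.02. Among other TEC genes, 2 of 504 were lower and 2 higher. Among other lincRNA genes, 12 of 2006 were lower and 8 higher. Of 183 other genes with an Olfr symbol, 0 were called with edgeR and 9 had an unadjusted p under 0.05. Among all 23225 genes tested, 3312 had an unadjusted p under 0.05. Other protein-coding genes were called in 3.67%. The classes were not matched for count level, on which a call depends, so their shares do not rank how far each class moved. A stricter pattern, which 4 of the 9 met, was rare. A count of 0 to 2 in all 4 fl/fl libraries with at least 0.5 CPM in all 4 wt/fl libraries was found in 5 of 12650 genes at that wt/fl level, namely Gm44183, Gm42887, Gm21244, Olfr655 and Gm45553. The mirror image was found in 3 of 13036 genes, Gm19366, Gm12070 and Hes1, a transcriptional repressor of the Notch pathway at 0 in wt/fl and 1.26 CPM in fl/fl.

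Among 15111 genes, those whose profile over the 21 libraries was most like the mean of the 9 were, apart from the 9 themselves, Gm45553 (Pearson's r of 0.93), Mapk1ip1 (0.93), H1foo (0.89), Ruvbl2 (0.88), Tcl1 (0.88) and Snrnp70 (0.88). H1foo, the linker histone of oocytes, had a mean of 9290 CPM in the 17 libraries and 7368 CPM in fl/fl. Tcl1, an activator of AKT kinase signalling, had means of 6686 and 5272 CPM, and Snrnp70, a protein of the U1 splicing particle, had 62.2 and 31.9 CPM. In each of the 6 genes all 4 fl/fl libraries lay below all 17 others, which follows largely from how the 6 were picked. Over all genes tested, 0.521% had all 4 fl/fl libraries below the 13 libraries other than wt/fl. Over the 17 libraries alone, r was 0.05 to 0.49 for the 6 genes, so the likeness lay mostly in the step between the 17 libraries and the fl/fl libraries.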

How the data were processed

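Poly(A) RNA counts of 21 oocyte libraries were grouped by the genotype labels. Per the study's methods, the authors used fastp for trimming, HISAT2 2.2.1 for alignment to GRCm38 and featureCounts 2.0.3 for counting, on Ensembl release 93 and for uniquely mapped reads alone. Use of strand is not stated. The deposited counts are whole numbers without normalization, with *Kif11* over all exons (used here) or over exon 22. The TPM values of the authors, whose computation is not stated, served as an alternative. Versions with *Kif11* over exon 1 were not used here.

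CPM was the count per 1000000 counts of the library. Fits used edgeR 4.0.16 in R 4.3.3 (quasi-likelihood, TMM, a nonzero count in 3 or more libraries, Benjamini-Hochberg threshold 0.05), with 17 libraries for the 3 pairs and 21 for fl/fl (mean of both Cre groups) against wt/fl. SE is the absolute log2 fold change over the square root of F, and intervals use the normal approximation. The fits were tested on simulated data. Positions and classes came from GENCODE M21 (Ensembl 96), whose symbols matched 54165 of 54232 identifiers. Transcripts were aligned with blastn 2.17.0. Their sequence is not reported here. Python 3.11.15 made the summaries.

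The 9 genes, the lists and the tests were chosen with earlier results of these data known. Genes named are the 9, their neighbours by position, the 6 with the most alike profile, and genes of the same pattern. Genes with the shared stretch were added after the data were seen. Of these, the 4 called and the 2 with the highest CPM are named. Alternatives were DESeq2 1.42.0, RLE sizes, other filters, the exon 22 counts, other sets of libraries, a replicate block, summed libraries of a shared name prefix, leaving out each library, and for the sum TPM, TMM sizes and medians.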

Additional observations from a re-analysis of the deposited data

How the results depend on the processing

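In the 3 pairs of groups not used in the choice, 0 of the 9 genes were called under every alternative run, leaving out each library and the replicate block included. Over 477 refits of the 27 differences, the smallest unadjusted p was 0.0481, for Gm45663 without fl/del Spo11-Cre replicate 3, and 16 of the 27 differences, all uncalled, changed sign at least once. The sum of the 9 in fl/fl, 11.8% of wt/fl, was 11.1% with TMM library sizes, 11.7% with TPM, 12.2% with exon 22 counts and 11.3% to 12.3% when each library was left out.

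The number of genes called between fl/fl and wt/fl moved most. It was 647, and became 1075 with DESeq2, 238 when the wt/fl and fl/fl libraries alone were fitted, and 303 to 1353 when each library was left out (303 without fl/fl Zp3-Cre replicate 1, 392 without fl/fl Gdf9-Cre replicate 2, 408 without wt/fl replicate 2, 1353 without fl/fl Zp3-Cre replicate 2). The background shares move with it. The cause was not tested. Neighbours called went from 0 to 1, Psmb7, with DESeq2 and with the exon 22 counts, and stayed at 0 under the other alternatives. Of the 31 other genes with the stretch, 4 were called, and 3 to 5 when each library was left out.

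Replicate numbers do not pair the libraries. Over 42 pairs with the same number, the correlation of deviations from the group means was -0.15 to 0.10, with 1 above 0.1. With the replicate block, 824 genes were called between fl/fl and wt/fl, and 143, 29 and 99 in the 3 pairs in place of 54, 8 and 45, and Gm44792 was called lower in fl/fl (adjusted p = 0.0448). For Gm44087 the call was also lost when the wt/fl and fl/fl libraries alone were fitted (adjusted p = 0.0563). For Gm45553 DESeq2 gave no adjusted p.

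Libraries of 3 oocytes, 2 for each fl/fl Cre, and 3 to 48 counts for Gm21244 and Olfr655 outside fl/fl limit what can be seen. Their differences in the 3 pairs had SEs of 0.55 to 0.72 on the log2 scale.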
